A study of Homo sapiens with 6 samples.

Results

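The genes described here are 39 genes of DNA replication and S phase, taken from a fixed list of symbols and read by 1 probe set each, the one with the highest mean over all 6 arrays. They are 39 of the 19775 genes that were tested. RNA from 3 samples labelled S153E-RKIP and 3 control samples was hybridised to Affymetrix HG-U133 Plus 2.0 arrays, 1 array a sample, and the values are log2 signals made with RMA. All samples were 1833 cells, a bone-seeking subline of the human breast cancer line MDA-MB-231. RKIP, the product of PEBP1, binds Raf-1 and restrains its signal to MEK and ERK, and S153E-RKIP is a mutant form named in the series as the stronger Raf-1 inhibitor. The mutant was delivered in a lentiviral vector and those cells were held in 0.5 µg/ml puromycin, while the control samples carried vector alone. The labels give no puromycin for the control samples, so any effect of the drug cannot be told apart from one of the mutant. Cells of both groups grew in serum-containing medium. The titles call the replicates biological and no label says whether they were separate cultures, so the p-values reflect only how far these 6 samples scatter, and part of that scatter may be technical.

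The labels of the treated samples conflict: their source name mentions a hairpin against HMGA2, and their title and other fields S153E-RKIP. PEBP1 does not settle it. Its signal was 11.74, 11.64 and 11.61 on S153E-RKIP arrays 1, 2 and 3, against 11.77, 11.73 and 11.77 on control arrays 1, 2 and 3, a difference of -0.093 (SE 0.058, limma adjusted p = 0.473). The labels do not say whether its probe set reads the transgene. HMGA2 had a difference of -0.023 (limma adjusted p = 0.882). Each direction given here rests on the title, and the arrays so labelled are called S153E-RKIP arrays. Of 6 markers of mesenchymal triple-negative breast lines, 5 lay above the median level of all genes (6.64), VIM among them at 14.39 to 14.44 on S153E-RKIP arrays and 14.45 to 14.48 on control arrays, and SPARC lay below it. Of 7 markers of other breast lineages, which such lines hold low or lack, 5 also lay above that median. KRT18, an epithelial keratin gene, read 12.95 to 13.03 on S153E-RKIP arrays and 13.03 to 13.09 on control arrays, while CDH1 and the hormone receptor gene PGR lay below the median. Of 8 measured genes of blood, fibroblast and endothelial cells, 7 lay below that median, and the blood cell gene PTPRC read 3.93 to 4.04 on S153E-RKIP arrays and 3.84 to 3.90 on control arrays. S153E-RKIP array 1 stood apart from arrays 2 and 3 of its group on the second principal component of all genes (21.6% of the variance, scores of 15.0, -8.3 and -7.7).

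DNA replication starts at origins that ORC, CDC6 and CDT1 load with the MCM helicase in G1. At the start of S phase CDC45 and the GINS complex join the helicase, and polymerases, the sliding clamp PCNA and its loader RFC follow. Many of these genes are switched on by E2F transcription factors once cyclin-dependent kinases inactivate RB, and mitogenic signalling through ERK feeds into that step in many cells.

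RefSeq promoter windows, 250 bases before to 50 bases after each annotated start in GRCh38.p14, were matched by symbol for 35 of the 39 genes. The windows were searched on both strands for the E2F-type element, spelled TTTCCCGC, TTTCGCGC, TTTGCCGC or TTTGGCGC, with overlapping matches counted. At least 1 match lay in 23 of 45 windows of these genes (51.1%), against 1164 of 35116 windows of all genes (3.31%). Counted by gene, 22 of 35 held a match (62.9%, against 3.99% of all genes with a window). The median GC content was 67.7% in the windows of the list and 58.7% in all windows, and a CCAAT box, on either strand, lay in 62.2% against 34.6%. Matches were present in 4 of 4 helicase genes with a window (MCM2, MCM3, MCM6 and MCM7), in 4 of 6 polymerase and primase genes, and in 3 of 4 S phase entry genes. They lay in 3 of 5 helicase activation, 2 of 4 origin licensing and 2 of 5 clamp and loader genes. The counts were 1 of 3 for nucleotide supply, 1 of 2 for Okazaki fragment joining, and 2 of 2 for maintenance methylation and uracil repair. Of the 30 matches, 20 began within 60 bases before the start or after it. A match is a run of letters and not a measured binding site. The 160 bases before the start are shown for 6 genes that hold a match there, 5′ to 3′, with the element in capitals. They cover the E2F factors themselves, the entry phosphatase gene CDC25A, and helicase, clamp and ligase genes whose levels follow.
E2F1 (chr20:33686386-33686545, - strand): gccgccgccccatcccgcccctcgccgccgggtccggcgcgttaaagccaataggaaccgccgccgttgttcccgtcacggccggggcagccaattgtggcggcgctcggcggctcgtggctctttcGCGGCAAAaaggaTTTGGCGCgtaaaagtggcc
E2F2 (chr1:23531234-23531393, - strand): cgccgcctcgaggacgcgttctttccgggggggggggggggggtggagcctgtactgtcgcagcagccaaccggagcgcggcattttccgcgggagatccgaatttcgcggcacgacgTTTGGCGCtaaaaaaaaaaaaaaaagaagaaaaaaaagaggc
CDC25A (chr3:48188418-48188577, - strand): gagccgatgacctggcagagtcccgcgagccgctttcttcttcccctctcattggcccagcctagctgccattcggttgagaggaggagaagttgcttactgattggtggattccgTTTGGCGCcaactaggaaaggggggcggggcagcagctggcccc
MCM6 (chr2:135876444-135876603, - strand): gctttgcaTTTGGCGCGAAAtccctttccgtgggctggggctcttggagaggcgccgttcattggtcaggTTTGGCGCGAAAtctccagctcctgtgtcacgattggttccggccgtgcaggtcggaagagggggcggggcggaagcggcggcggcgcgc
PCNA (chr20:5126623-5126782, - strand): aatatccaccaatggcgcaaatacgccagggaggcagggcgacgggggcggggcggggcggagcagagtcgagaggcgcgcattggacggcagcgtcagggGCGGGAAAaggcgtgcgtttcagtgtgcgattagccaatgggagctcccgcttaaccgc
LIG1 (chr19:48170345-48170504, - strand): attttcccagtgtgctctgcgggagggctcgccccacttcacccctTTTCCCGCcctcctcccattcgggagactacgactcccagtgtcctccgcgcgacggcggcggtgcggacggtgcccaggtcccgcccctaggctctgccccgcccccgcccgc
The E2F1, E2F2 and CDC25A sequences share the forward element TTTGGCGC, which MCM6 carries in 2 places, each time overlapping a reverse match. PCNA and E2F1 hold a reverse match and LIG1 the forward element TTTCCCGC.

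**Figure D1:**
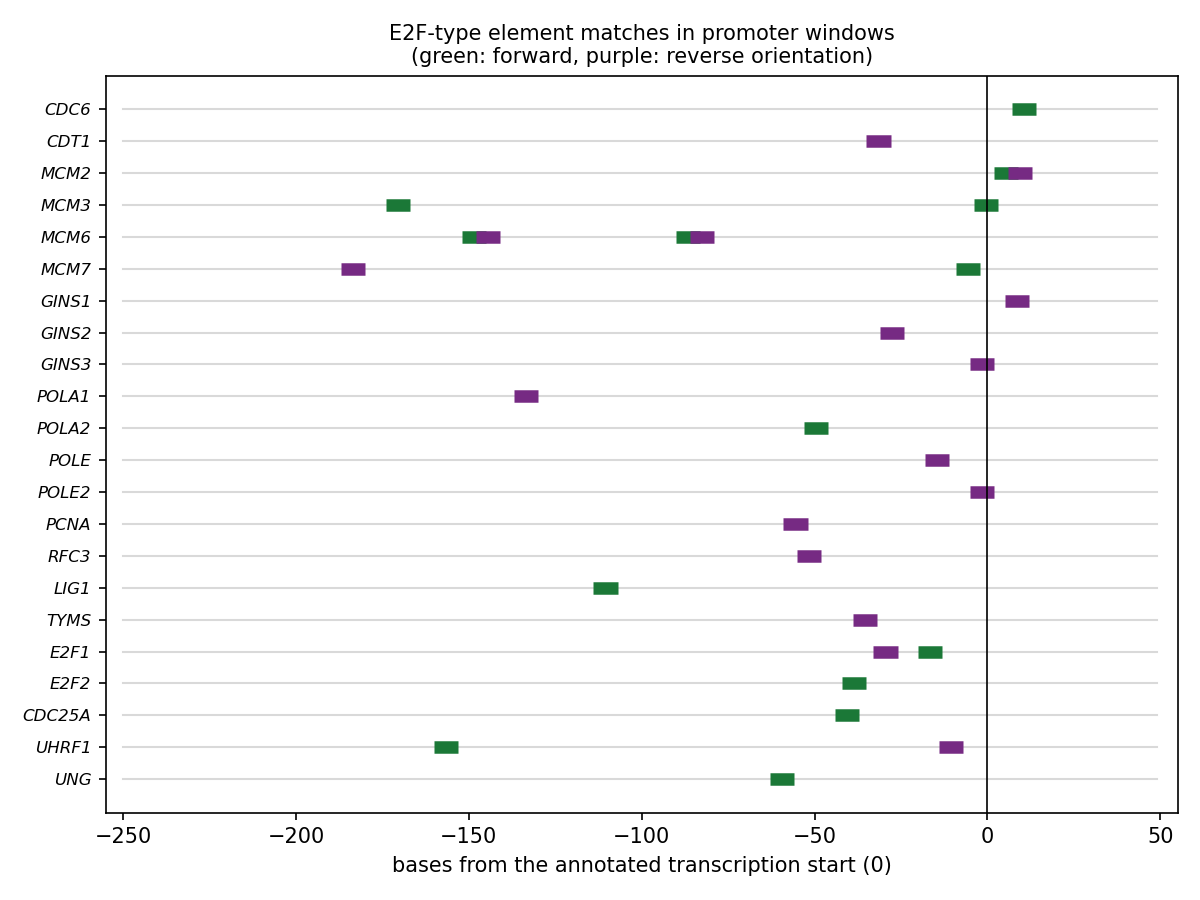
Positions of E2F-type element matches (green forward, purple reverse) along the promoter windows of the 22 genes with a match; the x axis gives bases from the annotated transcription start and each row is 1 gene, with all of its windows overlaid. Of the 30 matches, 23 lie wholly before the start, and MCM6 shows its overlapping pairs.

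The comparison of S153E-RKIP with control asks whether transcripts of this programme differ in cells given the Raf-1 inhibitor. None of the 39 genes rose and none fell at a limma adjusted p under 0.05, where 1.90% of all 19775 genes were called (0.688% higher and 1.21% lower). At an unadjusted p under 0.05 there was 1 of 39, GINS4, against 15.7% of all genes. Differences, given throughout as log2 signal on S153E-RKIP arrays minus control arrays, lay above 0 for 20 genes and below 0 for 19, where 53.6% of all genes lay above 0 and 46.4% below. Their median was 0.0026, against 0.010 over all genes. They ran from -0.30 for GINS4 to 0.14 for CDT1, and 29 of 39 were smaller than 0.1 in size (74.4%, against 60.0% of all genes). All 39 levels lay above the median of all genes, as did all 47 other replication and all 36 mitosis genes described below. When only the 9887 genes above that median were tested, 523 were called, with GINS4 the only 1 of the 39. The median difference of those brighter genes was -0.029. In bulk RNA, fewer cells in S phase and less RNA per cell cannot be told apart.

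Each interval holds for 1 gene taken alone, not for all 39 at once, and rests on the scatter of these arrays. The 95% confidence intervals of all 39 genes lay within a 1.5-fold change either way, and those of 35 within 1.25-fold. Most genes on the array met these bounds too: of all 19775 genes, 19243 lay within 1.5-fold and 14261 within 1.25-fold. The exceptions at 1.25-fold were GINS4, CDC6, CDT1 and RFC2. The lowest bound was -0.47, for GINS4, and the highest 0.37, for CDT1. A p that misses the threshold does not show equal levels.

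**Figure D2:**
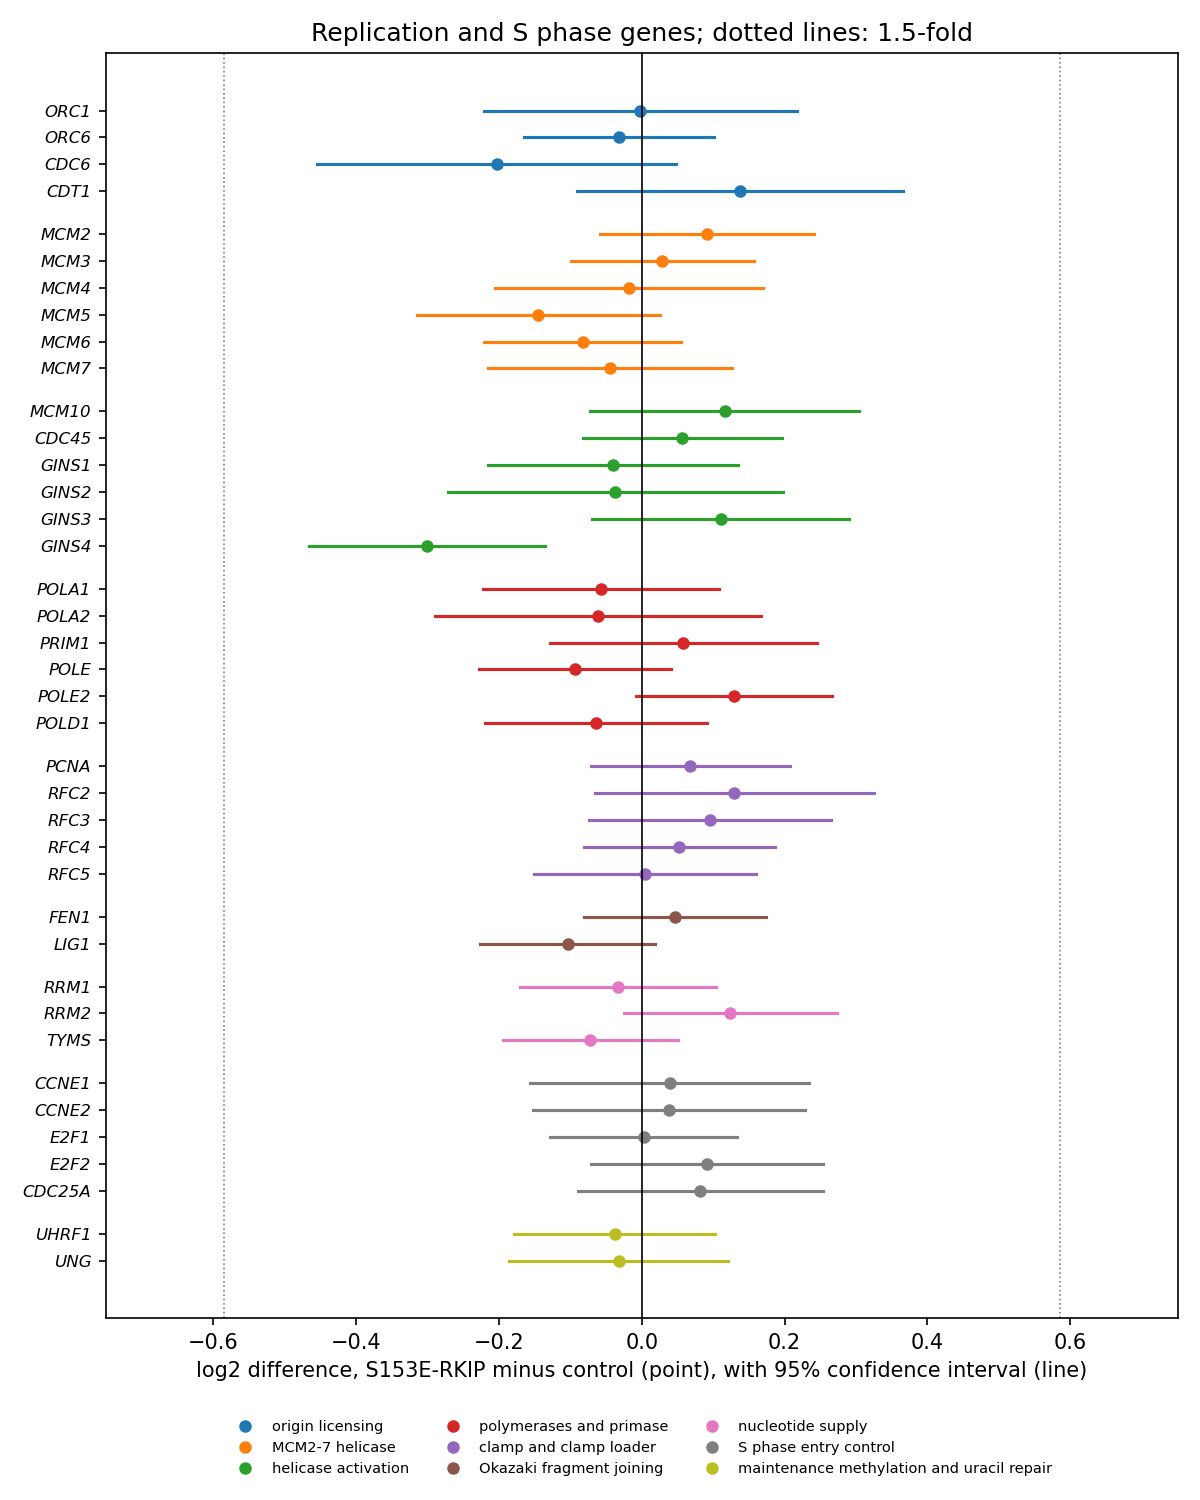
Fitted log2 difference (S153E-RKIP minus control, x axis) of each of the 39 genes (rows, coloured by role), points with 95% confidence intervals from the moderated variance, n = 3 arrays a group. All intervals lie inside the dotted 1.5-fold lines, and that of GINS4 is the only one that does not reach 0.

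Of the 4 origin licensing genes, 1 had a difference above 0 and 3 below. CDC6, the ATPase that loads the helicase, read 10.39, 9.97 and 9.97 on S153E-RKIP arrays 1, 2 and 3, against 10.30, 10.28 and 10.36 on control arrays 1, 2 and 3. S153E-RKIP array 1 was above every control array and the other two were below every control array. The difference was -0.20 (SE 0.11, adjusted p = 0.412). Without S153E-RKIP replicate 1 it was -0.34 (SE 0.056, limma adjusted p = 0.0441). It was the only call among the 39 genes when each of the 6 arrays was left out in turn. The second probe set of CDC6 read 10.22, 9.78 and 10.02 on S153E-RKIP arrays and 10.25, 10.13 and 10.17 on control arrays, again with S153E-RKIP array 1 the highest of its group (difference -0.17, SE 0.11). CDT1, the partner of CDC6 in loading, read 9.65, 9.25 and 9.34 on S153E-RKIP arrays, against 9.33, 9.24 and 9.26 on control arrays, and the groups overlapped. Its difference was 0.14 (SE 0.10, adjusted p = 0.529). Leaving out S153E-RKIP replicate 1 gave 0.019. CDT1 is read here by a probe set of the x_at type, which may cross-hybridise, and its dimmer probe set had a difference of -0.062. The origin recognition subunits ORC1 and ORC6 had differences of -0.0020 and -0.032, and the only probe set of ORC6 is also of the x_at type.

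Of the 6 genes of the MCM helicase, the ring that unwinds DNA, 2 had a difference above 0 and 4 below. MCM2 read 10.70, 10.55 and 10.51 on S153E-RKIP arrays and 10.52, 10.46 and 10.50 on control arrays, so the groups overlapped, with a difference of 0.092 (SE 0.066, adjusted p = 0.524). MCM5 had the smallest p of the ring. It read 9.86, 9.72 and 9.64 on S153E-RKIP arrays against 9.88, 9.81 and 9.96 on control arrays, a difference of -0.14 (SE 0.074, adjusted p = 0.387). Both probe sets of MCM5 lay below 0 (-0.14 and -0.18). The other members had differences of 0.029 (MCM3), -0.018 (MCM4), -0.082 (MCM6) and -0.044 (MCM7). A further quantile normalisation put 3 of the 6 above 0 and equal array medians put 1 there, so no direction can be given for the ring.

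GINS4, a subunit of the GINS complex that turns the MCM ring into an active helicase, had the smallest p of the list and was not called. GINS4 read 8.88, 8.67 and 8.80 on S153E-RKIP arrays 1, 2 and 3, against 9.10, 9.0 and 9.14 on control arrays 1, 2 and 3. Every S153E-RKIP array lay below every control array. GINS4 was 1.23-fold lower, a difference of -0.30 with an SE of 0.072 and a limma adjusted p of 0.0938 (95% confidence interval -0.47 to -0.14). At an adjusted p under 0.05 it was called under 2 of the alternatives, with only genes above the median level tested (adjusted p = 0.0412) and with a trended, robust variance (adjusted p = 0.0405). It also passes the looser threshold of 0.1. Over all alternatives on the brightest probe set or the mean of all probe sets its adjusted p ran up to 0.302.

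The array holds 4 probe sets for GINS4, all with a difference below 0 and 3 with an unadjusted p under 0.05, where 14.1% of all 41091 probe sets with 1 symbol had one. These probe sets read the same gene in the same samples, and GINS4 was singled out by its p in these data. They are therefore not independent support. The second brightest read 7.43, 7.40 and 7.5 on S153E-RKIP arrays, against 7.72, 7.75 and 7.77 on control arrays. These groups also did not overlap (difference -0.31, SE 0.059, adjusted p over all probe sets = 0.0504). The third read 5.28, 5.52 and 5.79 on S153E-RKIP arrays and 5.85, 5.87 and 5.79 on control arrays (difference -0.31, SE 0.12, adjusted p = 0.289), and its lowest S153E-RKIP array was replicate 1. The dimmest had a difference of -0.10 (SE 0.068). Both of these dimmer probe sets read below the median of all genes (6.64).

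**Figure D3:**
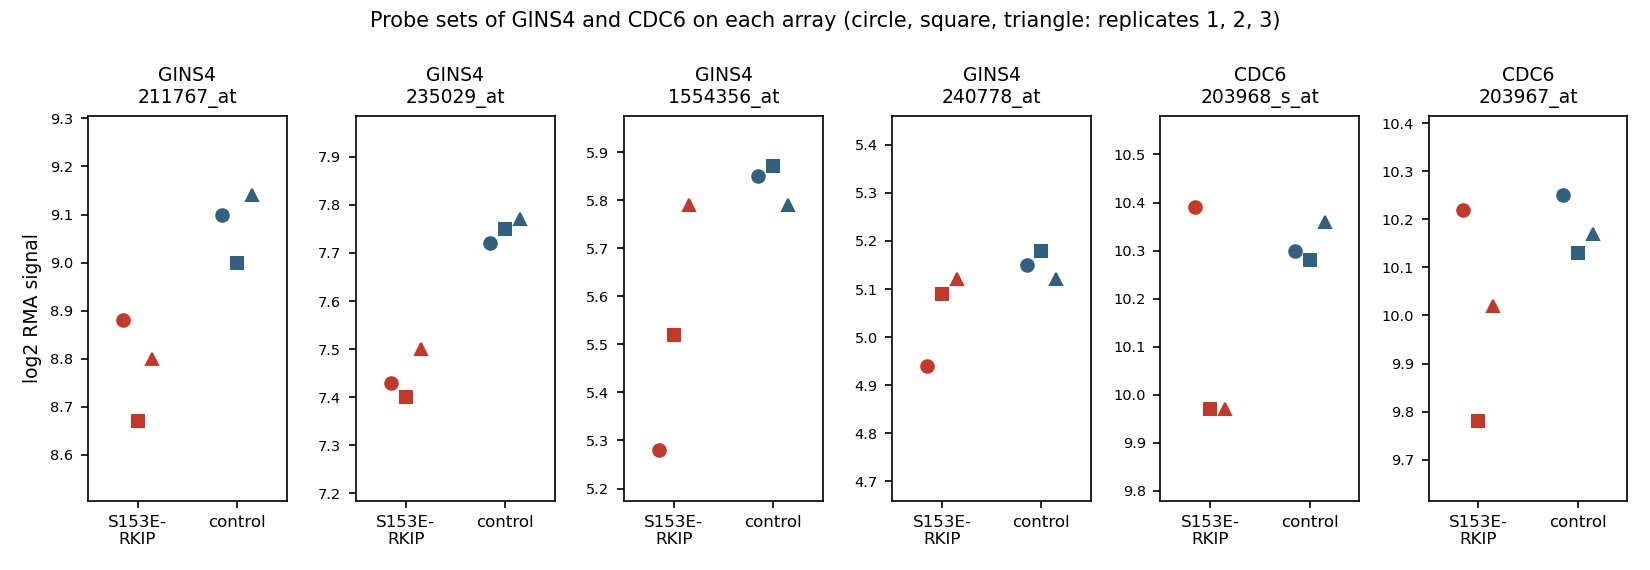
Log2 RMA signal (y axis, each panel spanning 0.8) of the 4 probe sets of GINS4 and the 2 of CDC6 on each S153E-RKIP (red) and control (blue) array. The 2 brighter GINS4 probe sets keep the groups apart, and on both CDC6 probe sets the circle of S153E-RKIP replicate 1 is the highest of its group.

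Of the other GINS subunits, none had an unadjusted p under 0.05. GINS1 and GINS2 had differences of -0.040 (SE 0.077) and -0.037 (SE 0.10), and GINS3 of 0.11 (SE 0.079). CDC45, the third component of the active helicase, had one of 0.057 (SE 0.061). MCM10, which is needed to start unwinding, had 0.12 (SE 0.082, adjusted p = 0.518), and its 3 probe sets all lay above 0. The second of these read 9.15, 9.05 and 9.11 on S153E-RKIP arrays, against 8.95, 8.90 and 8.98 on control arrays, without overlap (difference 0.16, SE 0.061, adjusted p over all probe sets = 0.291). It was the only probe set of the list besides those of GINS4 with an unadjusted p under 0.05. Of the 75 probe sets of the 39 genes none was called, where 1.35% of all probe sets were. Of 23 genes with over 1 probe set, 7 had probe sets that differed in sign, which limits the counts above and below 0.

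Of the 6 polymerase and primase genes, 2 had a difference above 0 and 4 below. POLE2, the second subunit of the leading-strand polymerase, read 10.98, 10.85 and 10.85 on S153E-RKIP arrays, all above the 10.78, 10.75 and 10.77 on control arrays. The difference was 0.13 (SE 0.060, adjusted p = 0.344). POLE, its catalytic subunit, read 7.86, 7.77 and 7.86 on S153E-RKIP arrays, all below the 7.98, 7.91 and 7.89 on control arrays, with a difference of -0.093 (SE 0.059, adjusted p = 0.474). Both differences keep the groups apart, in opposite directions (1.09-fold and 1.07-fold). POLD1, catalytic subunit of the lagging-strand polymerase, had -0.064, POLA1 and POLA2 of the primase complex -0.057 and -0.061, and the primase gene PRIM1 0.058.

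All 5 genes of the clamp and its loader had a difference above 0, none past the threshold, with a median of 0.068. PCNA, the clamp, read 12.73, 12.58 and 12.63 on S153E-RKIP arrays, against 12.56, 12.56 and 12.61 on control arrays (difference 0.068, SE 0.061, adjusted p = 0.616). RFC2 read 10.47, 10.16 and 10.38 on S153E-RKIP arrays, against 10.20, 10.15 and 10.27 on control arrays (0.13, SE 0.085, adjusted p = 0.490). In both genes S153E-RKIP array 1 was the highest of all and the groups overlapped. RFC3, RFC4 and RFC5 had differences of 0.096, 0.053 and 0.0040. With equal array medians 4 of the 5 lay above 0, as they did without S153E-RKIP replicate 1, without S153E-RKIP replicate 3, without control replicate 2 and when all probe sets of each gene were averaged.

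FEN1, the flap nuclease that trims Okazaki fragments, had a difference of 0.047 (SE 0.056). LIG1, the ligase that joins them, read 8.50, 8.50 and 8.45 on S153E-RKIP arrays, all below the 8.62, 8.56 and 8.59 on control arrays. Its difference of -0.10 (SE 0.053, adjusted p = 0.389) was small and came with little spread on either side. Among nucleotide supply genes, RRM2, the regulated subunit of ribonucleotide reductase, read 13.13, 12.95 and 13.03 on S153E-RKIP arrays, against 12.95, 12.87 and 12.92 on control arrays, a difference of 0.12 (SE 0.065, adjusted p = 0.396) with overlapping groups. RRM1, its partner subunit, had -0.033 (SE 0.060). TYMS, which makes thymidylate, read 13.02, 12.95 and 12.97 on S153E-RKIP arrays, all below the 13.07, 13.03 and 13.06 on control arrays (-0.072, SE 0.054, adjusted p = 0.540). In all, 5 of the 39 genes kept the groups apart, GINS4, POLE, LIG1 and TYMS lower and POLE2 higher on S153E-RKIP arrays. That is 12.8%, where 20.1% of all genes did (9.31% higher and 10.8% lower).

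The 5 regulators of S phase entry all had differences smaller than 0.1. E2F1, the activating E2F factor, read 8.46, 8.38 and 8.36 on S153E-RKIP arrays, against 8.38, 8.44 and 8.37 on control arrays. The groups overlapped, with a difference of 0.0026 and an SE of 0.057 (limma adjusted p = 0.988, 95% confidence interval -0.13 to 0.13). CCNE1, which encodes cyclin E1, the activator of CDK2, read 8.42, 8.10 and 8.17 on S153E-RKIP arrays and 8.22, 8.14 and 8.21 on control arrays (0.039, SE 0.085, adjusted p = 0.855). CCNE2 read 10.40, 10.14 and 10.18 on S153E-RKIP arrays and 10.14, 10.16 and 10.31 on control arrays (0.038, SE 0.083, adjusted p = 0.855). For both cyclins S153E-RKIP array 1 was the highest of all 6, and without that replicate the differences were -0.054 and -0.040. E2F2 read 7.14, 7.14 and 7.28 on S153E-RKIP arrays and 7.19, 7.08 and 7.02 on control arrays (0.091, SE 0.071, adjusted p = 0.557). CDC25A, the phosphatase that frees CDK2 for activity, had a difference of 0.082 (SE 0.075). All 5 lay above 0, and 2 of 5 did without S153E-RKIP replicate 1. UHRF1, which carries DNA methylation through replication, and UNG, which removes uracil, had differences of -0.038 (SE 0.062, adjusted p = 0.802) and -0.032 (SE 0.067).

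**Figure D4:**
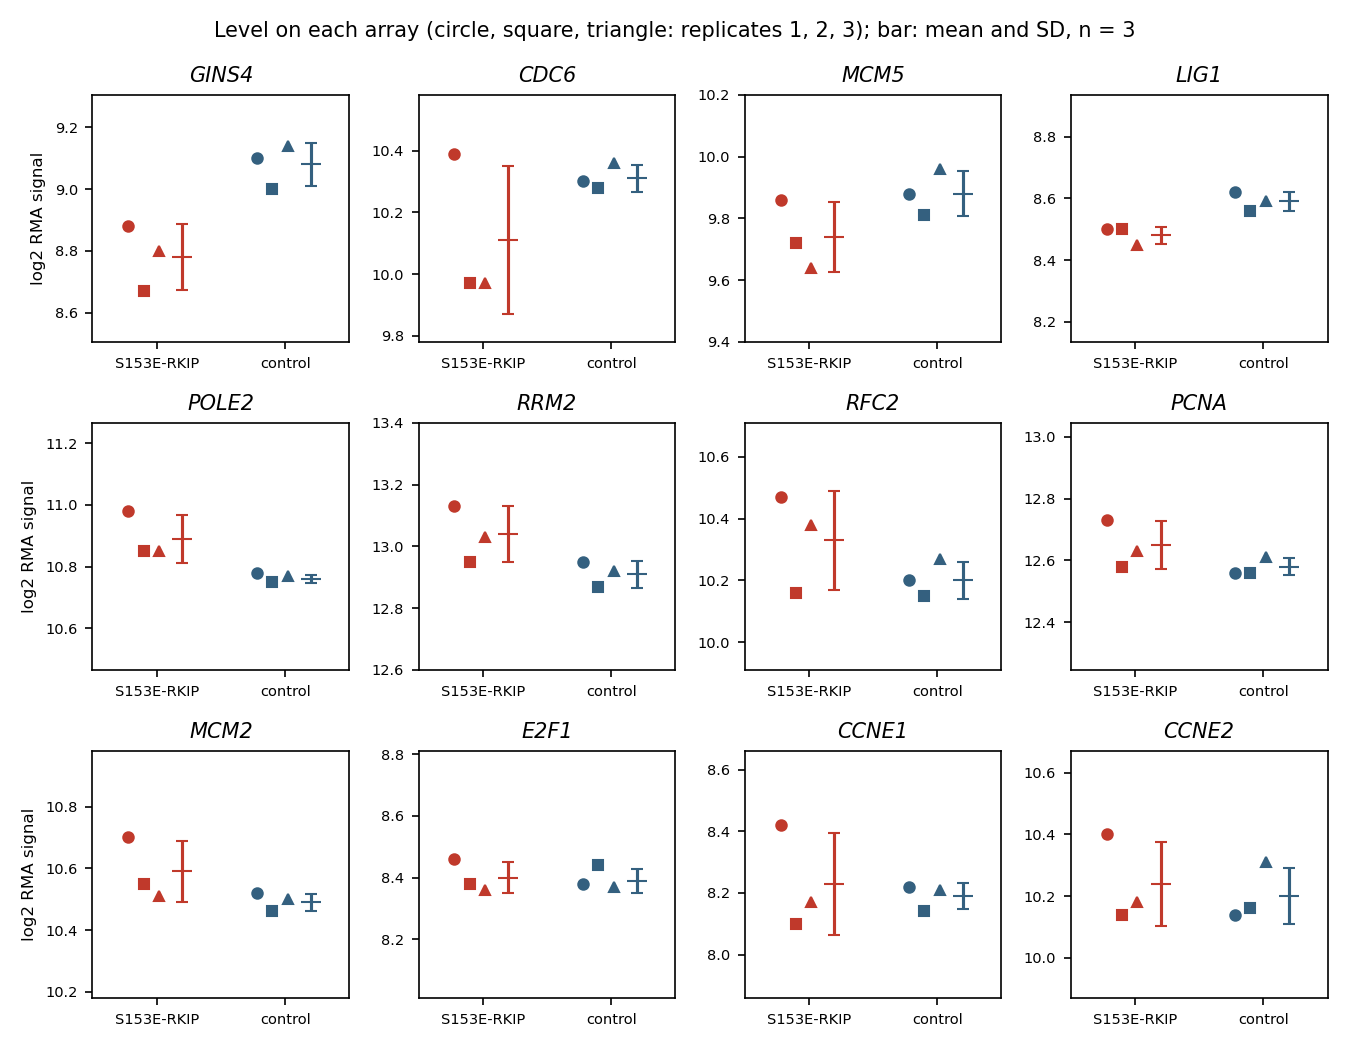
Log2 RMA signal (y axis, each panel spanning 0.8) of 12 of the genes on S153E-RKIP (red) and control (blue) arrays, with the mean and SD of n = 3 beside the points. Only GINS4, LIG1 and POLE2 keep the groups apart among these 12, and S153E-RKIP replicate 1 (red circle) is the highest of its group in every panel except LIG1.

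Arrays of one group differed from each other in a way that most of the 39 genes shared. S153E-RKIP array 1 was the highest of its group for 34 of 39 genes, and S153E-RKIP array 2 the lowest for 31. Among control arrays the same replicate numbers stood out, with array 1 the highest for 27 and array 2 the lowest for 30. The median deviation of the 39 genes from their own 6-array mean was 0.077, -0.070 and -0.0069 on S153E-RKIP arrays 1, 2 and 3, and 0.030, -0.062 and 0.0026 on control arrays 1, 2 and 3. The groups overlapped on this measure. Over all genes the same medians ran from -0.0061 to 0.016 on S153E-RKIP arrays and from -0.0037 to 0 on control arrays. The pattern was not particular to the list. For 47 other replication genes, described next, the medians were 0.0435, -0.063 and -0.018 on S153E-RKIP arrays 1, 2 and 3. On control arrays 1, 2 and 3 they were 0.049, -0.0385 and 0.011. The range over 3 arrays was wider on the S153E-RKIP side for 28 of the 39 genes, with a median of 0.153 against 0.109 on the control side, while over all genes 65.5% were wider there.

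Genes of the same pathway outside the list were 50 in number, of which 47 were measured, and again none was called. Of the 47, 17 had a difference above 0 and 30 below. Their median was -0.022, against -0.029 over all genes above the median level. It turned positive after a further quantile normalisation (0.020), after loess (0.016) and without S153E-RKIP replicate 2 (0.0079). An unadjusted p under 0.05 was found for 2 of the 47 (4.26%, against 15.7% of all genes). The 3 with the smallest p were E2F7, TK1 and TICRR. E2F7, a repressing E2F factor, read 10.81, 10.91 and 10.92 on S153E-RKIP arrays, all below the 11.10, 11.10 and 11.03 on control arrays (-0.20, SE 0.059, adjusted p = 0.168). TK1, the thymidine kinase of S phase, read 10.39, 10.14 and 10.27 on S153E-RKIP arrays, all below the 10.49, 10.40 and 10.59 on control arrays (-0.22, SE 0.081, adjusted p = 0.247). TICRR, which helps fire origins, had a difference of -0.15 (SE 0.072, adjusted p = 0.349). E2F-type matches lay in 16 of 40 other replication genes that have a promoter window (40.0%, against 3.99% of all genes with a window).

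Mitosis genes, which peak after S phase, were none of them called among 36 measured, and 5 had an unadjusted p under 0.05 (13.9%, against 15.7% of all genes). Of the 36, 4 had a difference above 0 and 32 below, with a median of -0.091, against -0.029 over all genes above the median level. The median deviation of the 36 was -0.015, -0.060 and -0.035 on S153E-RKIP arrays 1, 2 and 3, against 0.065, 0.0032 and 0.024 on control arrays 1, 2 and 3, so these medians did not overlap. CENPF, a kinetochore protein gene, had a difference of -0.30 (SE 0.094, adjusted p = 0.186), KIF23, a kinesin gene of cytokinesis, -0.20 (SE 0.072) and PRC1, a spindle midzone gene, -0.16 (SE 0.059). The groups kept apart in 12 of 36 mitosis genes (33.3%), and in 5 of the 39 replication and S phase genes (12.8%), where 20.1% of all genes did. Whether the lists differ was not tested. Of 29 mitosis genes with a promoter window, 3 held an E2F-type match (10.3%, against 3.99% of all genes with a window).

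**Figure D5:**
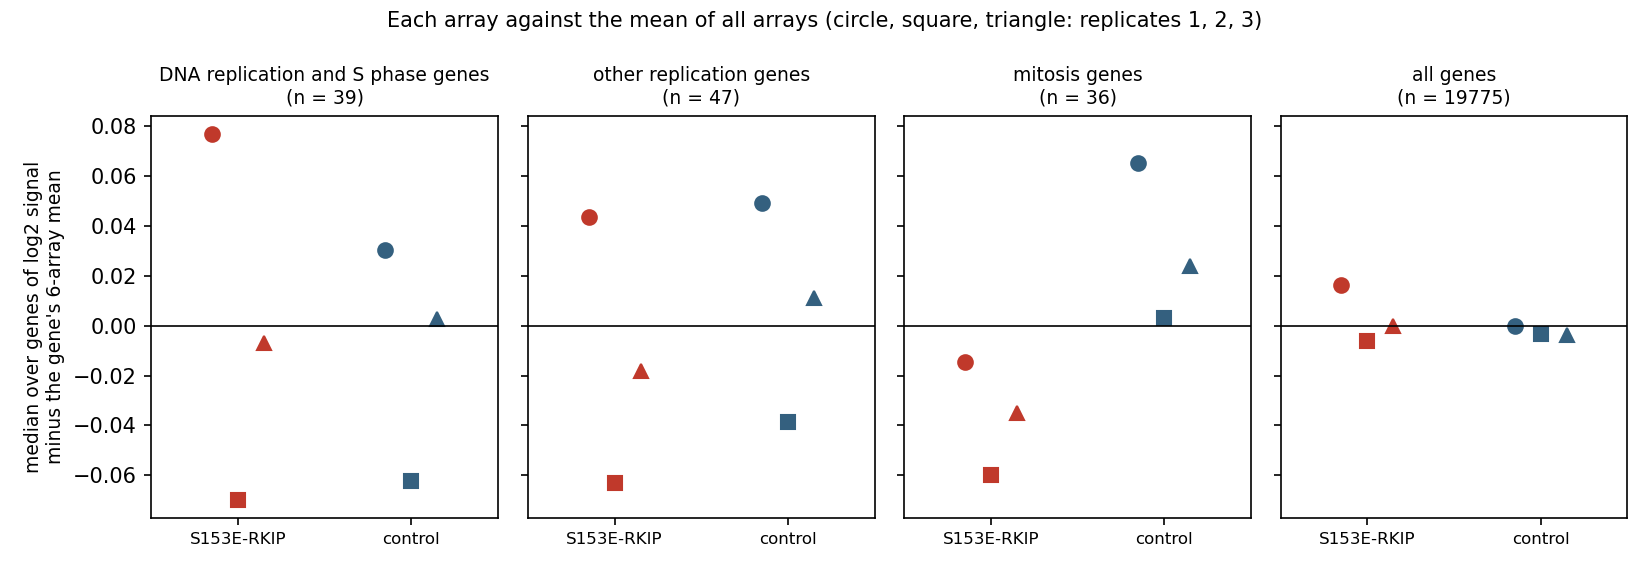
Median over the genes of each list of the log2 signal minus the gene's own 6-array mean (y axis), 1 point per array, S153E-RKIP in red and control in blue. The groups overlap for the 39 replication and S phase genes and for the 47 other replication genes, and for the 36 mitosis genes all 3 red points lie below the blue ones.

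Upstream of E2F lie the CDK inhibitors, the D cyclins with CDK4 and CDK6, and RB proteins, listed here together with E2F4 and E2F5. At an unadjusted p under 0.05 (limma) there were 5 of the 15 measured genes (33.3%, against 15.7% of all genes). The groups kept apart in 7 of them (46.7%, against 20.1% of all genes). Of 15 measured, CDKN1A rose and CDKN1B fell, where 1.90% of all genes were called (0.688% higher and 1.21% lower). CDKN1A, which encodes the CDK inhibitor p21, read 9.72, 9.54 and 9.54 on S153E-RKIP arrays, against 9.13, 9.23 and 9.20 on control arrays (0.41, SE 0.068, adjusted p = 0.0223). CDKN1B, which encodes the inhibitor p27, read 9.5, 9.56 and 9.5 on S153E-RKIP arrays, against 9.77, 9.84 and 9.80 on control arrays (-0.28, SE 0.055, limma adjusted p = 0.0453). Neither gene's groups overlapped. The call of CDKN1A was lost without S153E-RKIP replicate 2 or 3 or any 1 control replicate (adjusted p up to 0.129), and that of CDKN1B without any 1 of the 6 arrays (up to 0.191). CDKN1B was also not called after quantile normalisation again (adjusted p = 0.126) or after loess (0.116). CDKN1C, which encodes the inhibitor p57 and was named after its values were seen, had the largest difference of the 15. It read 7.63, 8.01 and 8.02 on S153E-RKIP arrays, all below the 8.28, 8.65 and 8.43 on control arrays. Its difference was -0.57 (SE 0.127, limma adjusted p = 0.0741), and it was called with the mean of its probe sets (0.0302), under both level filters (0.0389 and 0.0465), with equal medians (0.0335) and with a trended, robust variance (0.0222). CDKN1C was not called without x_at probe sets, after quantile normalisation again, after loess or with array weights. Nor was it called without any 1 of the 6 arrays. CCND1, the cyclin D1 gene that ERK signalling feeds, read 11.04, 10.96 and 11.03 on S153E-RKIP arrays and 11.46, 11.08 and 10.94 on control arrays. Its difference of -0.15 (SE 0.12, adjusted p = 0.571) rested on control array 1, and it was 0.00030 without that replicate.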

How the data were processed

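RMA values were deposited by the authors as log2 signals, 1 per probe set and array, per the submitters' processing notes. This method removes background, gives the probe signals of all arrays the same distribution and then combines the probes of a set, so the combined values can still differ between arrays. The sources used here name no version. Of 54675 probe sets, 62 controls were left out, 41091 had 1 gene symbol in the platform annotation, 1801 several and 11721 none. A gene was read by its brightest probe set over all 6 arrays, which gave 19775 genes, with no filter on dim genes. Symbols were checked against RefSeq by gene identifier (41037 matched, 0 changed). The median signal of an array lay between 5.63 and 5.67 for S153E-RKIP and between 5.60 and 5.62 for control, and the number of arrays limits the precision.

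S153E-RKIP was compared with control in limma 3.58.1 (R 4.3.3; lmFit, eBayes, two-sided) with Benjamini-Hochberg adjustment over all genes. Genes were called at an adjusted p under 0.05. The members and companion lists were chosen with earlier results of these data known. The genes named by rule are MCM2, CDC6, PCNA, RRM2, CCNE1, CCNE2, E2F1, the member of each role with the smallest p, and called companions or the 3 of each companion list with the smallest p. Array values of CDT1, POLE, TYMS and probe sets of MCM10 were added after their values were seen. On data simulated for this comparison over 19775 genes the fit recovered 11 of 50 genes changed 1.25-fold, 33 of 50 at 1.5-fold and 48 of 50 at 2-fold, and called 8 of 19575 unchanged genes. Alternatives were other probe set rules, level filters, normalisations, variance models, thresholds, a replicate block and each array left out. Figures were drawn with matplotlib 3.10.9.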

Additional observations from a re-analysis of the deposited data

How the results depend on the processing

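Among the 39 genes the count of calls stayed at 0, except for 1 gene (GINS4) with only genes above the median level tested, 1 (GINS4) with a trended and robust variance, 1 (GINS4) at an adjusted p under 0.1, and 0 to 1 when each array was left out in turn (CDC6 without S153E-RKIP replicate 1). Their median difference ran from -0.049 without S153E-RKIP replicate 1 to 0.049 after quantile normalisation again, so its sign is not settled. Over all genes 376 were called, against 600 with the trended and robust variance, 147 at an adjusted p under 0.01, 627 at 0.1, and 124 to 303 with 1 array left out (303, 171 and 216 without S153E-RKIP replicates 1, 2 and 3, and 124, 152 and 130 without control replicates 1, 2 and 3). The mitosis median was -0.062 after quantile normalisation again and -0.13 with equal medians, and -0.10 to -0.066 with 1 array left out. Other replication and mitosis genes had 0 calls under every alternative run. Of the CDK inhibitors and RB control genes, 1 was called after quantile normalisation again and 1 after loess, 0 at an adjusted p under 0.01, and 0 to 1 with 1 array left out. There were 3 with the mean of probe sets, under both level filters, with equal medians, with the trended and robust variance and at an adjusted p under 0.1. Over all genes, same-numbered samples did not deviate together in every pair (r of 0.13, 0.26 and -0.04), so the numbers were not taken as pairs. Among the 39 genes the order was often shared by number. Array 1 was the highest of its group for 34 genes (S153E-RKIP) and 27 (control), and array 2 the lowest for 31 and 30. The main fit leaves any such shared scatter in its SEs. With the replicate block 0 of the 39 genes, 332 of all genes and 1 CDK inhibitor and RB control gene were called. That gene was CDKN1C (limma adjusted p = 0.0155), while CDKN1A (adjusted p = 0.0538) and CDKN1B (0.0824) were not called. Of the 39 genes, 17 turned sign under at least 1 alternative, 11 of them with all arrays kept, and none of these was called. Among the 24 genes named by rule, 5 uncalled differences turned. CCNE1 had -0.0092 with the mean of its probe sets, -0.058 on its dimmer probe set, and -0.054 to 0.10 with 1 array left out. E2F1 had -0.033 with equal medians, -0.0049 with array weights, and -0.027 to 0.025 with 1 array left out. CCNE2 ran from -0.040 to 0.090, UHRF1 from -0.061 to 0.0017 and CCND1 from -0.26 to 0.00030 in those fits. The cause was not tested. With 3 arrays a group, changes of about 1.25-fold were mostly missed on simulated data.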
